A study of Mus musculus with 6 samples.

Results

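The genes described here are 8 components of the caspase pathway of cell death. The 8 genes were measured in cells sorted as upper-layer neurons of the mouse cerebral cortex, at postnatal day 5 (P5) and postnatal day 3 (P3). They were chosen by name from the gene column of the deposited table, where all 8 of 8 were found among 22544 rows, and all 8 had been tested between the ages. They comprise the initiator caspases Casp2, Casp8 and Casp9, the executioner caspase Casp6, the apoptosome genes Apaf1 and Cycs, the caspase inhibitor Xiap and its antagonist Diablo. The neurons came from Swiss Webster mice under standard husbandry, carried green fluorescent protein and were collected by fluorescence-activated cell sorting, with 3 biological replicates at P5 and 3 at P3. The labels name no mutation or drug at either age, and they do not say how the fluorescent protein was delivered or whether animals were pooled.

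Caspases are proteases that lie inactive in the cell until they are cut or brought together. In the mitochondrial route, cytochrome c leaves the mitochondrion and binds Apaf1, which assembles into the apoptosome and activates caspase-9, which in turn activates executioner caspases. Xiap binds and blocks some active caspases, and Diablo, released beside cytochrome c, lifts that block. Loss of Apaf1 or Casp9 in mice leaves extra neural tissue, and many cortical neurons die in the first postnatal weeks.

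Expression is given as FPKM, a fragment count corrected for transcript length and library total, which allows levels of different genes to be compared. The authors' table holds 1 pooled FPKM value per age, so the spread between replicates is seen only through the deposited Cuffdiff test. Ratios below are P5 over P3 on the log2 scale, without a pseudocount, and their standard errors (SE) are those implied by that test. A gene was called changed at q = 0.05 over all 12865 tested rows.

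None of the 8 genes was called changed between P5 and P3, with 0 called higher and 0 called lower. The background was the same, since 0% of tested rows were called. The smallest deposited q was 0.999988. Of the 8 genes, 0 had an unadjusted p under 0.05, against 0.77% of tested rows. The inhibitor Xiap had the lowest p of the 8 genes and the lowest ratio, followed on both counts by Apaf1. In all, 6 of 8 genes had lower FPKM at P5, against 43.2% of tested rows, and 2 of 8 had higher FPKM, against 56.8%. Their median log2 ratio was -0.34, beside 0.13 over the 12313 tested rows that were above 0 FPKM at each age. Those are descriptions of pooled values, and no test was made of the share or of the median.

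**Figure D1:**
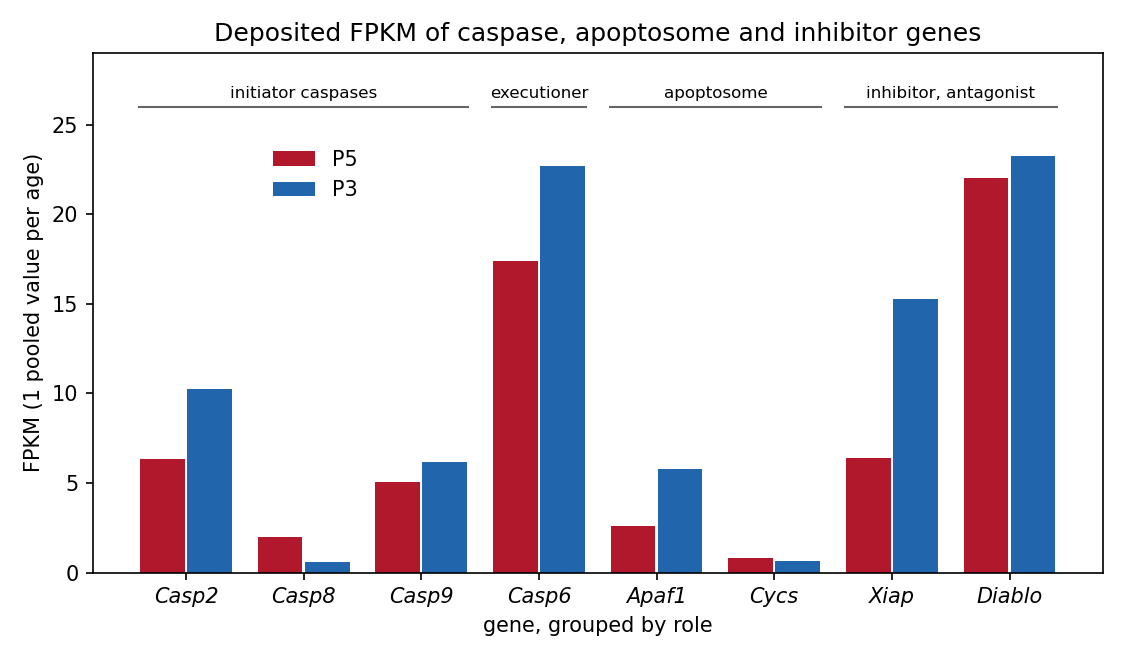
Deposited FPKM of the 8 genes, grouped by role on the horizontal axis, with P5 in red and P3 in blue and 1 pooled value per age, so that no error bar can be drawn. Diablo and Casp6 are the highest at both ages, at 22.1 and 17.4 FPKM at P5, and Xiap shows the widest gap in FPKM, at 6.42 at P5 and 15.3 at P3.

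The order of levels was nearly the same at both ages. At P5 it ran from Diablo through Casp6, Xiap, Casp2, Casp9, Apaf1 and Casp8 to Cycs. At P3 the first 6 stood in the same order, and Cycs and Casp8 changed places at the low end. Against the 12865 tested rows, Diablo lay above 81.8% of FPKM values at P5 and 83.1% at P3, and Casp6 above 77.8% at P5 and 82.8% at P3. Xiap, at P5, lay above 53.4% of tested rows and, at P3, above 76.0%. Because the table holds no replicate values, it cannot be said which neighbours in this order differ beyond their spread.

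Of the initiator caspases, Casp2 and Casp9 stood within 2-fold of each other at both ages, and Casp8 stood below them. Casp2 (mm9 chromosome 6, 42215038 to 42232495), which is activated on a platform built by Pidd1 and Cradd, had 6.36 FPKM at P5 and 10.3 FPKM at P3. Its log2 ratio was -0.69 (SE 1.05), with p = 0.51 in the authors' deposited table. Casp9 (mm9 chromosome 4, 141349527 to 141381918), the caspase of the apoptosome, had 5.06 FPKM at P5 and 6.18 FPKM at P3. The log2 ratio of Casp9 was -0.29 (SE 1.12), and p was 0.80 in the authors' deposited table. Both genes thus had lower FPKM at P5, by less than their error.

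Casp8 (mm9 chromosome 1, 58852218 to 58904347), the initiator recruited by death receptors, had a lower level than either, with 1.97 FPKM at P5 and 0.599 FPKM at P3. At P5 the FPKM of Casp2 was 3.23 times and that of Casp9 2.57 times that of Casp8, and at P3 they were 17.1 and 10.3 times. The log2 ratio of Casp8 was 1.72, the highest of the 8 genes, but its SE of 6.69 was larger than that of 97.6% of those 12313 rows, and its 95% interval ran from -11.4 to 14.8. That interval spans both directions widely. Markers of microglia, which can also express Casp8, were higher at P5 in 10 of 10 genes, with a summed 150 FPKM at P5 and 16.5 FPKM at P3. Their part in the Casp8 values was not tested, and more cells of a type and more RNA per cell cannot be told apart in such sorts.

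Casp6 (mm9 chromosome 3, 129604343 to 129617020), an executioner that cleaves nuclear lamins and has been tied to axon pruning in mice, was the most abundant caspase of the set. It had 17.4 FPKM at P5 and 22.7 FPKM at P3, a log2 ratio of -0.38 (SE 1.09), with p = 0.72 in the authors' deposited table. Its FPKM was 3.44 times that of Casp9 at P5 and 3.67 times at P3. The executioner thus stood above each initiator at both ages, while its own difference between ages was well inside its error.

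Among the apoptosome genes, Apaf1 (mm9 chromosome 10, 90452056 to 90545488), the scaffold, had 2.58 FPKM at P5 and 5.80 FPKM at P3. The P5 value was 0.445 times the P3 value, a log2 ratio of -1.17 (SE 1.14), and 7.65% of the 12313 tested rows above 0 FPKM at each age had a lower ratio. With p = 0.31 in the authors' deposited table, this difference did not pass the test. Casp9 and its scaffold stood at similar FPKM at P3, with Casp9 at 1.07 times Apaf1, and at P5 Casp9 was at 1.96 times Apaf1. That shift in the quotient has no test of its own.

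Cycs (mm9 chromosome 6, 50512562 to 50516473), which encodes the cytochrome c that carries electrons in respiration and triggers the apoptosome, was listed at 0.833 FPKM at P5 and 0.624 FPKM at P3. Its log2 ratio was 0.42 (SE 2.35), and p was 0.86 in the authors' deposited table. Only 10.03% of tested rows had a lower FPKM at P5 and 15.5% at P3. This is a low listing for a gene that every respiring cell uses, and why it is low was not tested. Copies of the Cycs coding sequence lie elsewhere in the mouse genome, as the start of the coding sequence shows, taken from GENCODE M21 transcripts on GRCm38. It is printed for Cycs (minus strand, chr6:50565571-50565660), for the retrogene Gm10053 (plus strand, chr19:24875753-24875842) and for the processed pseudogene Gm10108 (minus strand, chr5:13121677-13121766), with bases that differ from Cycs in capitals.
Cycs: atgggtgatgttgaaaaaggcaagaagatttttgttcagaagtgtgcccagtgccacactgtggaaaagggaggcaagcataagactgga
Gm10053: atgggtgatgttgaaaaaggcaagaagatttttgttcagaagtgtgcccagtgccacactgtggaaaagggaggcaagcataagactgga
Gm10108: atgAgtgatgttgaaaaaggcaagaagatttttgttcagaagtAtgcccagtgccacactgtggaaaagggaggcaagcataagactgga
Over these 90 bases Gm10053 had 0 differences from Cycs and Gm10108 had 2. Of the 269 windows of 50 bases in the 318-base coding sequence, 269 were found without a mismatch in Gm10053, 225 in Gm10108 and 217 in a further processed pseudogene, Gm13772. None of these 3 names matched a row of the table as used here. Over the whole 3123-base transcript, 28.2% of windows (868 of 3074) were found in a gene elsewhere, and the rest, the larger part, were not. Gm10053 held 847 of the 868, so its match extended beyond the coding sequence.

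The other 7 genes shared little sequence. The share of such windows found in a gene elsewhere was 4.37% for Casp8, 1.07% for Xiap, 0.385% for Apaf1 and 0 for Casp2, Casp6, Casp9 and Diablo. For comparison, 19 nuclear genes of respiratory complexes III and IV, the electron partners of cytochrome c, were looked up after the Cycs value was seen. They had a median of 95.9 FPKM at P5 and 59.7 FPKM at P3, and 17 of the 19 stood above Cycs at each age. The 14 with under 10% of windows elsewhere had medians of 112 FPKM at P5 and 69.8 FPKM at P3. The 5 with a larger share had medians of 2.01 FPKM at P5 and 3.60 FPKM at P3. The ranges of the 2 groups overlapped. The 14 ran from 8.81 to 679 FPKM at P5 and from 13.9 to 546 FPKM at P3. The 5 ran from 0.495 to 217 FPKM at P5 and from 0 to 75.8 FPKM at P3, and Uqcrb among them had not been tested between the ages. These groups depend on the window length, and the 10% cut was not varied. With 36-base windows, Cox5a, Uqcrh and Cox6c, at 183, 47.8 and 48.0 FPKM at P5, also had more than 10% elsewhere. With 75-base windows, Cox6a1 and Uqcr11, at 217 and 3.54 FPKM at P5, fell under 10%. Cyc1, the cytochrome of complex III, with 0 shared windows, was at 102 FPKM at P5 and 59.7 FPKM at P3. Cox5b and Uqcrb, with 21.8% and 43.2% of windows elsewhere, were listed at 0.710 and 0.495 FPKM at P5, but Cox6a1, with 12.3%, had 217 FPKM. These genes were not sampled at random, and they carry no test. How the authors' processing treated reads that match several places is not given in the sources used here, so the FPKM of Cycs is uncertain, and the part of the copies in it was not tested.

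**Figure D2:**
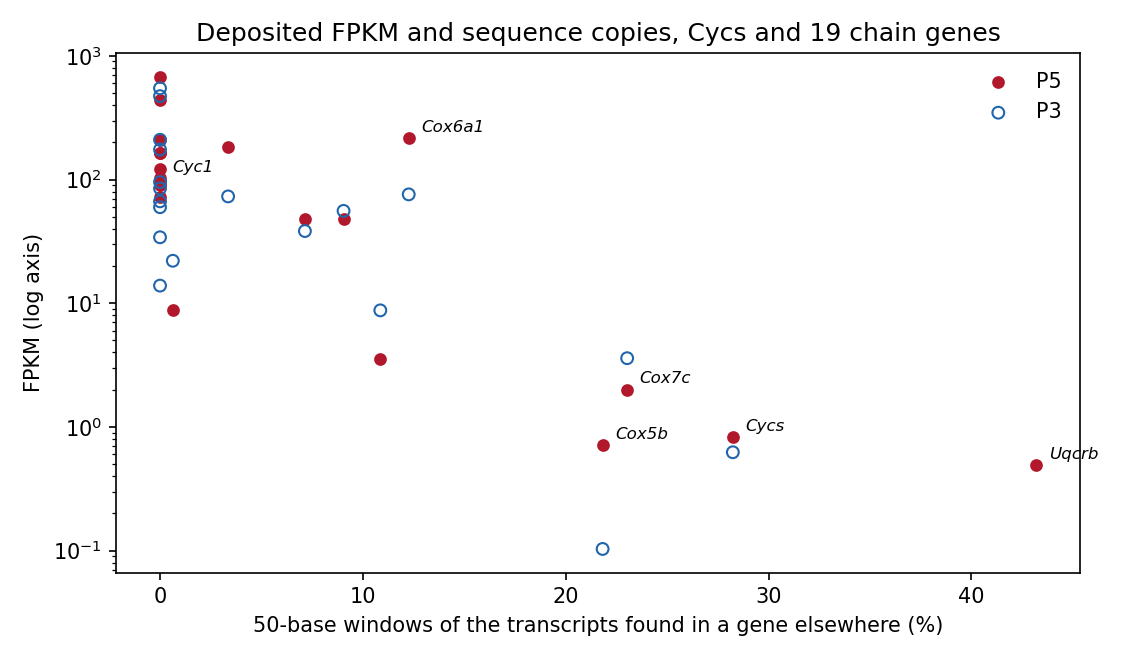
FPKM on a log axis against the percentage of 50-base transcript windows found in a gene elsewhere, for Cycs and 19 genes of respiratory complexes III and IV, with P5 as filled red points and P3 as open blue circles. Cycs, at 28.2% and 0.833 FPKM at P5, lies among Cox5b, Cox7c and Uqcrb at the low end, and Uqcrb at P3 is not drawn because it is listed at 0.

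Xiap (mm9 chromosome X, 39421013 to 39462841), which binds and blocks caspase-9 and some but not all executioner caspases, had 6.42 FPKM at P5 and 15.3 FPKM at P3. The P5 value was 0.421 times the P3 value. Its log2 ratio was -1.25, with an SE of 0.95 and a 95% interval from -3.11 to 0.61, and 6.55% of the same 12313 rows had a lower ratio. The p-value of 0.19 in the authors' deposited table was the lowest of the 8 genes, and the difference did not pass the test. The SE of Xiap was the smallest of the 8 genes, yet a log2 ratio of 1.86 in size would have been needed for an unadjusted p of 0.05.

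Diablo (mm9 chromosome 5, 123960469 to 123974173), which frees caspases from Xiap, was the most abundant of the 8 genes and the closest to an even ratio. It had 22.1 FPKM at P5 and 23.2 FPKM at P3, a log2 ratio of -0.08 (SE 1.07) with a 95% interval from -2.17 to 2.02. Taken against its target within each age, Diablo had 3.43 times the FPKM of Xiap at P5 and 1.52 times at P3. Casp9 had 0.788 times the FPKM of Xiap at P5 and 0.404 times at P3. Both quotients have Xiap as their denominator, and the difference in Xiap did not pass the test.

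**Figure D3:**
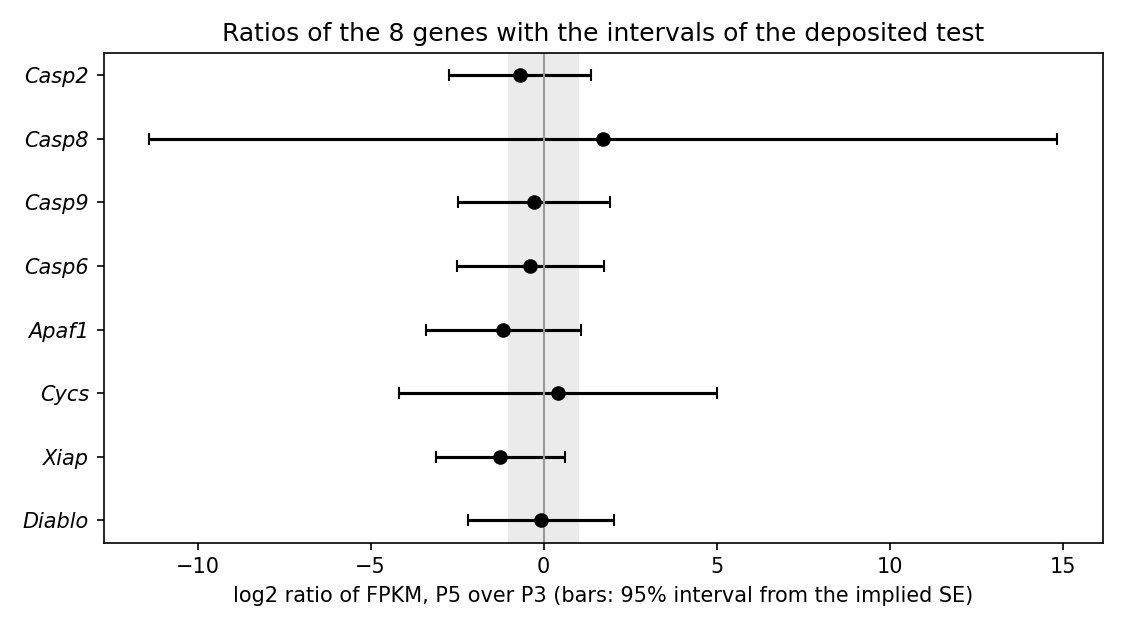
Log2 ratio of FPKM, P5 over P3, for each of the 8 genes, with bars for the 95% interval from the implied SE and grey shading for ratios within 2-fold. The interval of each of the 8 genes includes 0, that of Casp8 runs from -11.4 to 14.8, and Xiap and Apaf1 have the lowest points at -1.25 and -1.17.

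By role, the 4 caspases summed to 30.8 FPKM at P5 and 39.7 FPKM at P3, and the 4 genes of the apoptosome, inhibitor and antagonist to 31.9 FPKM at P5 and 44.9 FPKM at P3. The median log2 ratio was -0.34 for the caspases and -0.62 for the other 4 genes. A ratio at least 2-fold lower at P5 was found in 2 of 8 genes, Apaf1 and Xiap, against 10% of the 12313 tested rows above 0 FPKM at each age, and a ratio at least 2-fold higher in 1 of 8, Casp8, against 23.9% of those rows. The 95% interval of each of these 3 ratios included 0. Loci of 2 genes also hold another row, which was listed at 0 at both ages for the partner of Casp9 (Cela2a) and at 0 FPKM at P5 and 0.039 FPKM at P3 for that of Diablo (B3gnt4).

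The wider pathway was followed in 7 lists with 68 rows of the table, of which 49 had been tested, with 0 called higher and 0 called lower. An unadjusted p under 0.05 was found in 0 of them, and 26 had higher and 23 lower FPKM at P5. The list of further caspases had 1 tested gene among its 4 rows, Casp12, which is linked to stress of the endoplasmic reticulum in mice. Casp12 had 0.103 FPKM at P5 and 1.40 FPKM at P3, a log2 ratio of -3.77 (SE 3.20), with p = 0.24 in the authors' deposited table.

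Relatives of Xiap, the inhibitor of apoptosis (IAP) genes, were tested in 3 of 9 cases, with a median of 0.26. Birc6, a giant ubiquitin-conjugating member, had 25.9 FPKM at P5 and 34.3 FPKM at P3. Birc5, which encodes survivin and acts mainly in mitosis, had 19.6 FPKM at P5 and 15.6 FPKM at P3. Genes that act on IAPs, Apaf1 or cytochrome c had a median of -0.40 over 9 tested, with 7 lower and 2 higher at P5. Of these, Ptma, an apoptosome modulator, had 37.5 FPKM at P5 and 47.3 FPKM at P3, and the Apaf1-binding Apip had 25.0 FPKM at P5 and 36.8 FPKM at P3. Anp32a, another apoptosome modulator, had 21.5 FPKM at P5 and 39.9 FPKM at P3. None of these differences passed the test.

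On the caspase-8 side, 10 of 15 genes for death receptors, their ligands and signalling partners were tested, 7 higher and 3 lower at P5. The 8 with FPKM above 0 at both ages had a median of 0.90. Tnfrsf1a, the main receptor of tumour necrosis factor, had 5.78 FPKM at P5 and 0.236 FPKM at P3, with p = 0.12 in the authors' deposited table. Tnfrsf21, a death receptor of neurons, had 23.2 FPKM at P5 and 13.4 FPKM at P3, and the adaptor Traf2 had 10.004 FPKM at P5 and 11.2 FPKM at P3. Fas and Ripk3, named after their values were seen, had 1.54 and 1.08 FPKM at P5 and were both listed at 0 at P3. The part of microglia, whose summed markers are given beside Casp8, in these values was not tested. For caspase-2, the adaptor Cradd was the only tested gene of its platform, with 7.002 FPKM at P5 and 6.66 FPKM at P3.

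Upstream, 13 of 15 BCL2 family genes were tested, 9 higher and 4 lower at P5, with a median of 0.39. Bax, which opens the mitochondrial outer membrane, had 74.5 FPKM at P5 and 71.4 FPKM at P3. Its relative Bok had 38.9 FPKM at P5 and 24.6 FPKM at P3, and Pmaip1, which encodes Noxa, 0.039 FPKM at P5 and 2.38 FPKM at P3 (p = 0.076 in the authors' deposited table). Downstream, 12 substrates and execution genes were tested, 5 higher and 7 lower, with a median of -0.18. Aifm1, a flavoprotein freed from mitochondria, had 30.7 FPKM at P5 and 17.9 FPKM at P3. Rock1, a kinase that caspases switch on by cleavage, had 23.6 FPKM at P5 and 26.6 FPKM at P3, and the lamin gene Lmnb1 had 3.58 FPKM at P5 and 9.36 FPKM at P3.

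**Figure D4:**
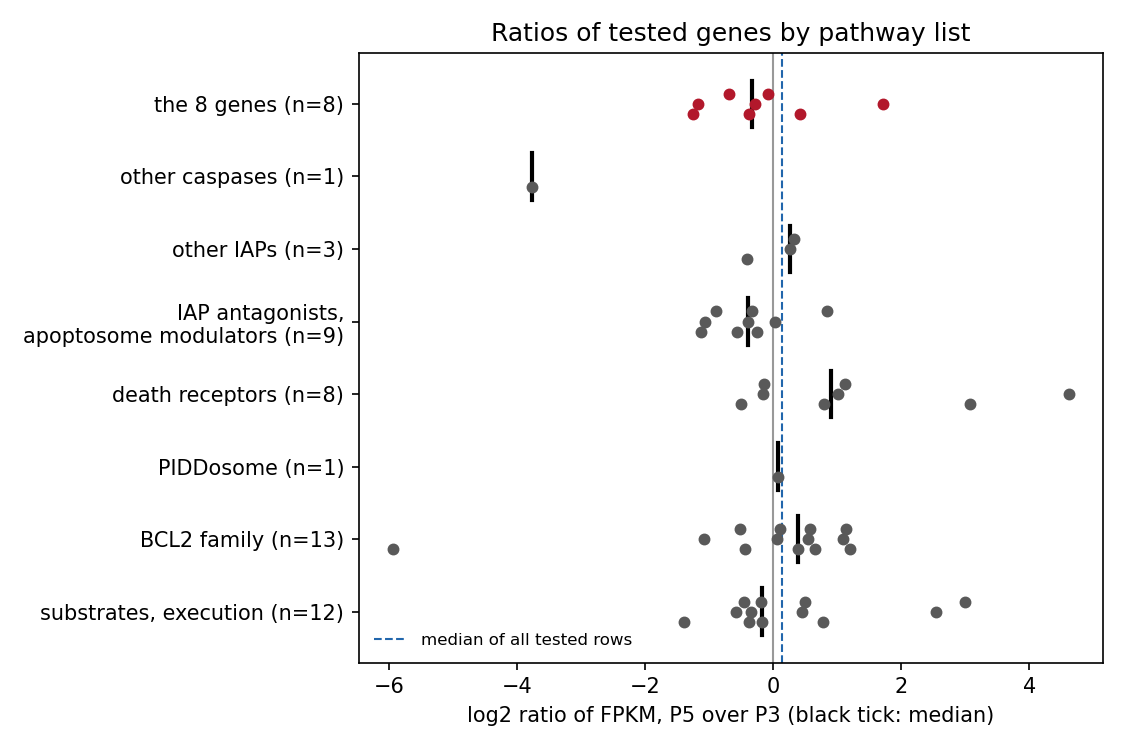
Log2 ratios of FPKM, P5 over P3, for the 8 genes (red) and for tested genes of 7 pathway lists with FPKM above 0 at both ages (grey), with a black tick for each median and a dashed line for the median of all tested rows, 0.13. Among lists with more than 1 gene, medians run from -0.40 for IAP antagonists and apoptosome modulators to 0.90 for death receptors with signalling partners. The list of 8 genes has a median of -0.34.

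Genes of these lists whose 2 values lay nearest to those of each of the 8 genes were found by distance on the log2 FPKM scale, among 47 genes. The closest pairs were Casp6 with Hccs, which attaches haem to cytochrome c, at a distance of 0.10, and Casp2 with the substrate Acin1 at 0.13. Casp9 lay nearest to the death receptor adaptor Fadd at 0.16, Diablo to Rock1 at 0.22 and Apaf1 to Nol3, a repressor of caspases, at 0.22. Casp8 lay nearest to the BCL2 family gene Hrk at 0.41, Xiap to Acin1 at 0.57 and Cycs to the BCL2 family gene Bbc3 at 0.62. With only 2 pooled values a gene, likeness of this kind rests on level as much as on the ratio.

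The sorted cells carried neuronal transcripts at both ages, beside transcripts of other cell types. Pan-neuronal markers summed to 1272 FPKM at P5 and 782 FPKM at P3 over 7 genes, and upper-layer markers to 476 FPKM at P5 and 471 FPKM at P3 over 8 genes, although the upper-layer gene Cux2 was at 1.99 FPKM at P5 and 1.87 FPKM at P3. Astrocyte markers summed to 3017 FPKM at P5 and 2380 FPKM at P3 over 10 genes (9 of 10 tested higher at P5). That sum was above the pan-neuronal sum at both ages, although the 2 lists differ in genes and in size. Oligodendrocyte lineage markers summed to 308 FPKM at P5 and 140 FPKM at P3 (10 of 10 higher). Endothelial and mural markers summed to 953 FPKM at P5 and 916 FPKM at P3, nearly all of it the pericyte gene Rgs5, and the sum without Rgs5 was 48.1 FPKM at P5 and 4.99 FPKM at P3. Of the 9 tested endothelial and mural markers, 7 were higher at P5, and their median log2 ratio was 2.73. Progenitor markers summed to 149 FPKM at P5 and 216 FPKM at P3 (1 of 9 higher), and erythroid markers to 71.1 at P5 and 2.51 at P3 (2 of 2). Interneuron markers summed to 822 FPKM at P5 and 698 FPKM at P3 (5 of 9 higher). Most of that sum came from Npy (356 at P5, 155 at P3), Sp8 (310 at P5, 445 at P3) and Sst (95.6 at P5, 30.1 at P3). Gad1 was at 8.73 FPKM at P5 and 5.69 FPKM at P3, and Gad2 at 7.97 and 9.29 FPKM. Of the defining markers, only the vessel gene Tek and the oligodendrocyte gene Mag were listed at 0 at P3 alone, and Hba-a2 was listed at 0 at both ages. The part of these cells in the values of the 8 genes was not tested.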

How the data were processed

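Upper-layer cortical neurons of 6 samples, 3 at P5 and 3 at P3, were assigned to groups from their titles. TopHat, Cuffdiff 2.02 and mm9 appear in the submitters' processing notes, with no role or order. FPKM was deposited by the authors as 1 value per age, labelled P3 or P5. That Cuffdiff pooled it over the replicates is inferred from the column names and the processing notes, which do not state it. The deposited p-values and q-values are those of Cuffdiff, and the deposited log2 ratio and test statistic were handled as scores, since both hold a placeholder where an age is at 0. Depth is unknown, as the table holds no counts, and no new test could be made without replicate values.

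Ratios were recomputed from FPKM. Deposited p-values matched a two-sided normal test of the statistic to within 2.8e-06 in 12313 tested rows. The SE was therefore obtained from the absolute sizes of ratio and statistic, and 95% intervals span 1.96 SE either side. Signs were left out because the deposited statistic had the sign of the P5 over P3 ratio in 0 of these 12313 rows. The median SE was 1.38, and the robust spread of the statistic was 0.66, below that of a standard normal, so these intervals may be wide. Loci, whose starts were taken to be 0-based, are printed counted from 1.

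Transcript windows of 50 bases were compared, on the forward strand, with all GENCODE M21 transcripts of genes at other loci. The members, lists and markers were chosen with earlier results of these data known. The naming rule took the 8 genes, the 2 most abundant and the lowest-p tested gene of each list, and the nearest list gene to each of the 8. Of 73 listed pathway symbols, 68 were rows, and the other 5 are alternative symbols or are not analysed here. Some genes of the pathway are not reported here. Python 3.11.15, pandas 2.3.3, numpy 2.4.6 and scipy 1.17.1 were used, and the adjustment was tested on simulated data.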

Additional observations from a re-analysis of the deposited data

How the results depend on the processing

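The count of 0 called among the 8 genes held at q = 0.01, with at least 1 FPKM at either age, under Bonferroni adjustment and with the statistic divided by its robust spread. That last setting called 3 rows of the whole table, against 0 as deposited, and none of the 8 genes. The median ratio of the 8 genes ranged from -0.54 without Casp8 and Cycs (chosen after seeing the data) to -0.22 as a mean. Means reversed the sign of 2 list medians, to -0.17 for the BCL2 family and 0.31 for substrates and execution genes. A mean weighs extreme ratios that a median does not. The lowest BCL2 family ratio was -5.94, for Pmaip1. The highest ratios among substrates and execution genes were 2.99 for Dffa (SE 10.3) and 2.55 for Endog (SE 185). Means without these genes were not computed. Centring on the median of all tested rows, which shifts ratios by 0.13, moved the caspase-2 platform, a list with 1 tested gene, across 0 to -0.058 by that shift alone. No ratio of the 8 genes changed sign under pseudocounts of 1 and 0.1 FPKM or centring, though with a pseudocount of 1 the ratio was 0.89 for Casp8, 0.17 for Cycs and, outside the 8 genes, -1.12 for Casp12, and centring put Diablo at -0.21. The share of Cycs windows found elsewhere was 30.6% with 36-base and 26.1% with 75-base windows, both added after seeing the data. Leaving out replicates was not run, because the table holds pooled values. No paired analysis was possible because the columns carry no replicate values.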
